A study of Mus musculus and Homo sapiens with 41 samples.

Results

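PLZF, the zinc finger protein encoded by Zbtb16, occupies enhancers in myeloid cells, and 9 genes named in the study as strongly PLZF-bound were followed here when PLZF was gained and when it was lost. The genes were Bbx, Blm, Mrpl23, Pla2g4a, Lrrc58, Mef2c, Furin, Ubash3a and Cd47. They were matched by symbol, and all 9 were found among the 13238 genes listed for 416b cells and among the 53756 rows listed for granulocyte-monocyte progenitors (GMPs). The study places strongly bound genes on a plot of the same 416b values, so the 416b values below are a description and are not independent evidence of a direction. Binding itself was not analysed here.

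PLZF is a BTB and zinc finger transcription factor that recruits corepressors and histone deacetylases, and it is known for maintaining progenitors in the blood and the germ line. An enhancer is a DNA element that raises transcription of a gene at a distance, and acetylation of histone H3 at lysine 27 (H3K27ac) marks active ones. A factor that lowers enhancer activity can be examined from both sides, by adding it to cells with little of it and by removing it from cells that make it.

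For the gain, 416b cells, a mouse myeloid progenitor line that carries Cd34, were transduced with lentivirus coding for PLZF-FLAG-GFP (PLZF-Flag) or for the tag and GFP alone (Empty vector), and GFP-positive cells were sorted. Each condition had 1 library, so no difference between the conditions has a replicate check. For the loss, GMPs were sorted from C57BL/6 Cd45-2 bone marrow of wild type (WT) or Zbtb16lu/lu mice, the latter homozygous for the luxoid allele, after transplantation of the marrow into lethally irradiated Cd45-1 hosts. Each genotype had 2 libraries, and both genotypes share the transplantation and the irradiated host. The labels name 1 sample per genotype, to which both of its libraries belong. The allele is carried in the germ line, so every donor-derived cell has it. Donor age and the number of animals behind each library are not given in the sources used here.

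All values are normalized counts, meaning reads per gene divided by a library size factor. The 416b libraries held 54529689 (Empty vector) and 19995819 (PLZF-Flag) reads on listed genes. The normalized totals of the GMP libraries lay between 38562940 and 40130730. Zbtb16 itself stood at 382 normalized counts in Empty vector and 2541 in PLZF-Flag, 6.63-fold higher. In GMPs it stood at 705 and 828 in WT, against 269 and 369 in Zbtb16lu/lu. The mutant libraries lay below both WT libraries, with a log2 fold change of -1.28 (SE 0.20, limma adjusted p = 0.299), which did not pass the threshold of 0.08. With a library left out it ranged from -1.503 to -1.048. Whether it passed then depended on which library was left out. These fits leave 1 library in a genotype, so only the sizes are given for Zbtb16. The 12 GMP marker genes summed to 18983 to 22197 CPM (counts scaled to the same total in every library) in the 4 GMP libraries and to 957 and 893 CPM in 416b cells, where Elane and Gfi1 were not listed and Mpo, most of the GMP sum, had 20 reads in Empty vector. Other genes of that list were present in both cells, such as Kit, with 6434 normalized counts in Empty vector and 6511 and 7338 in WT GMPs, and Cd34, with 11059 against 12396 and 17633. The erythroid and megakaryocyte markers summed to 999.8 and 979 CPM in 416b cells and 50.1 to 133 CPM in GMPs. Itga2b and Pf4 carried most of the 416b sum, while Gata1, the erythroid and megakaryocyte master factor, stood at 15.1 normalized counts in Empty vector and at 214 and 213 in WT GMPs.

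Among the members, 4 form 2 pairs of neighbouring genes. On chromosome 16 Cd47 (mm10, chr16:49800533-49915010, plus strand) and Bbx (chr16:50191844-50432390, minus strand) are neighbours with 0 protein-coding genes in the 276.8 kb between them. On chromosome 7 Furin (chr7:80388585-80405436, minus strand) and Blm (chr7:80454733-80535119, minus strand) are also neighbours, 49.3 kb apart. The other members are at chr1:149829618-149961290 (Pla2g4a, minus strand), chr7:142532686-142540747 (Mrpl23, plus strand), chr13:83504034-83667080 (Mef2c, plus strand), chr16:37868389-37888858 (Lrrc58, plus strand) and chr17:31207873-31246892 (Ubash3a, plus strand). No other protein-coding gene overlaps any of the 9.

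The study used primer pairs in enhancers of Cd47, Furin and Mef2c, and each pair matched the genome at 1 place. The 3 stretches are quantitative PCR amplicons of 117 to 149 bases, not whole enhancers, whose ends are not given here. Each label below names the enhancer that the amplicon was made for. The stretches are shown because they place a part of the enhancers of 3 members, and 2 of them lie next to a further member, Bbx or Blm. The letters were read from the reference genome (GRCm38, 5′ to 3′ on the plus strand), and capitals mark where the primers lie.
Cd47 enhancer: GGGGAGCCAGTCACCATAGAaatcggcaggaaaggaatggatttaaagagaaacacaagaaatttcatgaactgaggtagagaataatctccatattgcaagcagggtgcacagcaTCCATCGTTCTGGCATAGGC
Furin enhancer: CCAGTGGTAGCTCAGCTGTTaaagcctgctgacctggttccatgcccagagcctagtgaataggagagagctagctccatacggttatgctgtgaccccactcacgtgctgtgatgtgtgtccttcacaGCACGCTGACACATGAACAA
Mef2c enhancer: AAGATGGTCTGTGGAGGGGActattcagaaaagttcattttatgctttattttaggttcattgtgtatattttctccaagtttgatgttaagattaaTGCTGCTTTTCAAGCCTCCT

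The Cd47 stretch (chr16:50032318-50032453) is intergenic. It lies 117.3 kb past the end of Cd47 and 159.4 kb past the end of Bbx, so it sits between both members. The Furin stretch (chr7:80438208-80438356) is intergenic as well, 32.8 kb before the start of Furin and 16.4 kb past the end of Blm. The Mef2c stretch (chr13:83111157-83111273) lies 392.8 kb before the start of Mef2c, in an intron of the noncoding gene 2310067P03Rik. Their GC content was 44.9%, 53.0% and 34.2%, against medians of 41.2%, 43.0% and 41.9% for stretches of equal length on the same chromosomes.

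**Figure D1:**
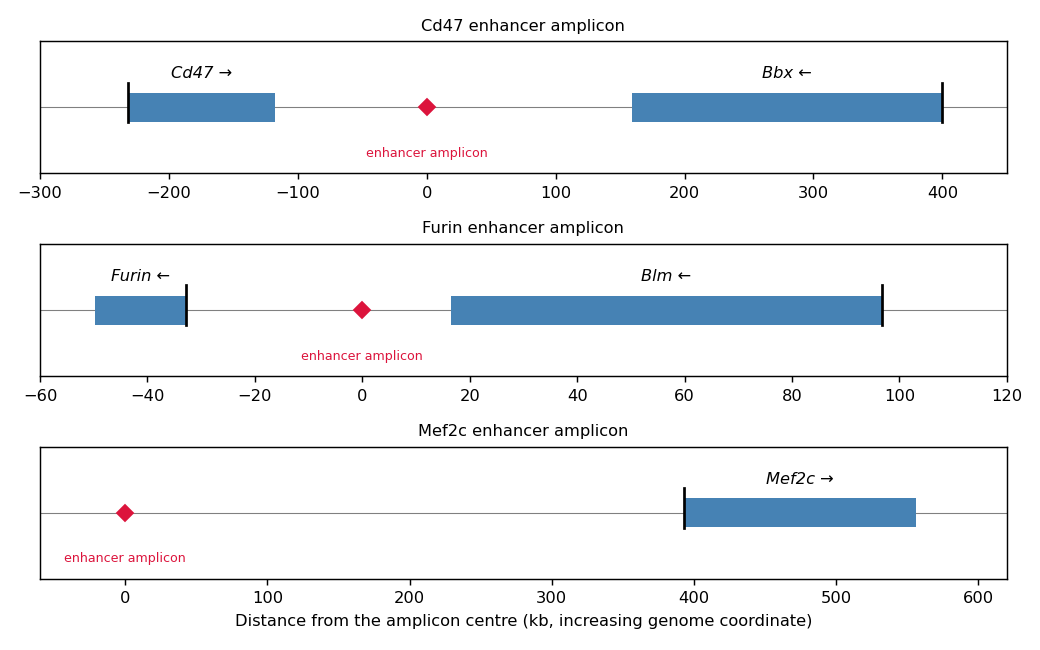
Maps of the 3 enhancer stretches (red diamonds) and the neighbouring members (blue bars, gene bodies from GENCODE; black ticks, annotated starts; arrows, direction of transcription). The horizontal axes give distance from the centre of each stretch in kb. The Cd47 stretch lies between Cd47 and Bbx, and the Furin stretch lies between Furin and Blm.

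Both strands of the 3 stretches were searched for short motifs of blood transcription factors. For the ETS factor PU.1 the letters were GAGGAA, for RUNX factors TGTGGT, for GATA factors AGATAA, for AP-1 factors TGANTCA and for CCAAT/enhancer binding proteins TTGCNNAA. None of them matched in any of the stretches, and between 3.52% and 14.3% of same-length tiles of these chromosomes hold a given one. This says only that these letters are not in these windows. The RefSeq promoter table (GRCm38), with 300-base windows around gene starts, held 8 of the 9 members. CpG counts ran from 53 in the Lrrc58 window, 51 in one Furin window and 35 or 36 in those of Cd47 to 1 in one Mef2c window, against a median of 7 over 32851 windows.

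The first comparison asked how the members stood when PLZF was added to 416b cells. All 9 were lower in PLZF-Flag, and the size ranged from 1.02-fold to 1.53-fold lower. Of all 11836 genes with a mean of at least 10, 50.0% were lower. The 95% interval, from exact binomial (Clopper-Pearson) limits on the recovered reads, lay below 0 for 7 members and included 0 for Bbx and Mrpl23. It lay below 0 for 15.9% of all genes and above 0 for 16.1%. Such intervals cover counting error only and say nothing of the spread between cultures. The median log2 ratio was -0.18 for the members and -0.00014 for all genes. In bulk RNA, fewer cells of a type and less RNA per cell cannot be told apart.

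The largest ratios belonged to a pair of signalling and surface genes. Ubash3a, which encodes a ubiquitin-associated and SH3 domain protein that dampens receptor signalling in T cells, had 866 normalized counts in Empty vector and 567 in PLZF-Flag, from 1431 and 343 reads. Its log2 ratio was -0.61 (interval -0.79 to -0.44), 1.53-fold lower. Cd47, the surface protein that tells phagocytes through SIRPα not to engulf a cell, had 8160.3 and 5716 normalized counts. Its log2 ratio was -0.51 (interval -0.57 to -0.46), 1.43-fold lower. Both ratios were in the lowest 5% of all genes, at percentiles 2.88 and 3.85.

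Furin, the proprotein convertase that cleaves precursors in the secretory pathway, followed with 2362 and 1872 normalized counts. Its log2 ratio was -0.34 (interval -0.43 to -0.24), 1.26-fold lower, at percentile 6.96. A group of smaller ratios came next. In it, Lrrc58, which encodes a leucine-rich repeat protein, had 6323 and 5504 normalized counts and a log2 ratio of -0.20 (interval -0.26 to -0.14). Mef2c, a MADS box transcription factor of myeloid and lymphoid progenitors as well as muscle, had 2929 and 2588 normalized counts and a log2 ratio of -0.18 (interval -0.26 to -0.10). Blm, the RecQ helicase whose loss causes Bloom syndrome, had 1777 and 1595 normalized counts and a log2 ratio of -0.16 (interval -0.26 to -0.05). These intervals overlapped one another and that of Furin, and the order of these 4 members was not tested.

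The remaining members were close to their level in Empty vector. Bbx, an HMG box factor, had 1382 and 1274 normalized counts and a log2 ratio of -0.12 (interval -0.24 to 0.00078). Scaling by edgeR's TMM or by total reads moved that interval to just below 0, so 8 members then had one below 0. Pla2g4a, the cytosolic phospholipase that releases arachidonate from membranes, was the most abundant member in 416b cells, with 11911 and 11571 normalized counts and a log2 ratio of -0.04 (interval -0.08 to -0.0023). Its value in PLZF-Flag was not a whole number of reads, so its interval is approximate, and the ratio is small. Mrpl23, a protein of the large mitochondrial ribosomal subunit, had 1063 and 1041 normalized counts and a log2 ratio of -0.03 (interval -0.16 to 0.10).

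**Figure D2:**
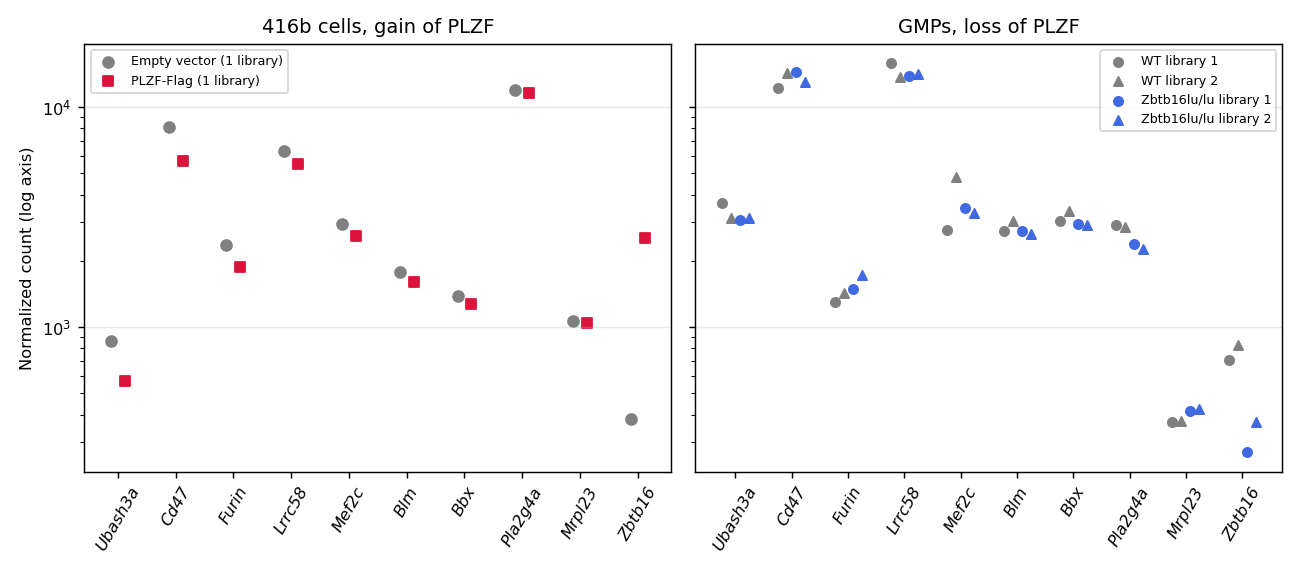
Normalized counts (log axis) of the 9 members and Zbtb16 in every library, with 416b cells on the left (grey circle, Empty vector; red square, PLZF-Flag; 1 library each) and GMPs on the right (grey, WT; blue, Zbtb16lu/lu; circles for library 1 and triangles for library 2). PLZF-Flag is the lower point for all 9 members, while in GMPs the genotypes overlap for 4 of them.

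The second comparison asked whether loss of PLZF in GMPs turns these differences around. By sign, 3 members (Furin, Mrpl23 and Cd47) were lower with gain and higher with loss, and 6 were lower in both experiments. Of the 5616 genes that were lower with gain and measured in GMPs, 44.7% were higher with loss. No member passed an adjusted p of 0.08 by limma, and neither did any of the 20531 genes tested (0%), with a smallest adjusted p of 0.299. The study itself reports genes on both sides that passed the same threshold in its own test of these genotypes. The count of 0 here rests on limma alone, with 2 libraries per genotype, and no count test was run on GMPs. It does not show that loss of PLZF leaves gene expression in GMPs unchanged. Before adjustment, 2028 genes (9.88%) had a p under 0.05, with 5.50% of genes on the higher side in the mutant and 4.37% on the lower side, and 1 of the 9 members, Pla2g4a, was among them. The median log2 fold change was -0.10 for the members and -0.0063 for all genes, of which 50.9% were lower.

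The libraries of the genotypes did not overlap for 5 members, and 43.9% of all genes also did not overlap. Mrpl23 and Furin were higher in both mutant libraries than in both WT libraries (21.7% of all genes), and Bbx, Blm and Pla2g4a were lower (22.1%). With 2 libraries against 2, the smallest two-sided p of an exact permutation test is 0.333, so that test could not pass for a single gene. The separate RNA extractions behind the libraries are stated for the study, not for each column, and the p-values measure the spread between these libraries.

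Furin was the member with an interval below 0 on gain and no overlap upwards on loss. It had 1303 and 1423 normalized counts in WT, against 1495 and 1717 in Zbtb16lu/lu. The log2 fold change was 0.24 (SE 0.136, 95% interval -0.08 to 0.55, limma adjusted p = 0.581). Its size with gain, 0.34, lay within that interval. WT library 1 and Zbtb16lu/lu library 2 carry the same date in their column names, and between them the difference was 0.40. Between the other libraries it was 0.07, and without Zbtb16lu/lu library 2 the log2 fold change was 0.14. The gene next to it, Fes, a tyrosine kinase of myeloid cells whose start is 638 bases from the end of Furin, had a log2 fold change of 0.35 on loss (SE 0.109, limma adjusted p = 0.427) and a log2 ratio of -0.07 on gain (interval -0.15 to 0.02).

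For Cd47 the genotypes differed by less than the spread within them. It had 12281 and 14341 normalized counts in WT, against 14413 and 13006 in Zbtb16lu/lu. The log2 fold change was 0.04 (SE 0.125, interval -0.24 to 0.33, limma adjusted p = 0.921), and it was -0.07 without WT library 1 and -0.03 without Zbtb16lu/lu library 1. A rise as large as the fall with gain, 0.51, lay above the upper end of the interval. The same was true of Ubash3a, with 3666 and 3134 normalized counts in WT, against 3072 and 3135 in Zbtb16lu/lu. Its log2 fold change was -0.13 (SE 0.124, interval -0.41 to 0.16, limma adjusted p = 0.736), against a size of 0.61 with gain, and it was -0.0145 without WT library 1 and -0.24 without WT library 2. The members with the largest ratios in 416b cells therefore had no opposite difference of that size in GMPs. Zbtb16 itself differed by a log2 ratio of 2.73 with gain and -1.28 with loss, in unlike cells. A reversal of equal size need not follow, and smaller rises lie within both intervals.

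Across the members, the size of the gain ratio lay above the loss interval for 4 (Cd47, Ubash3a, Lrrc58 and Pla2g4a) and inside it for 5. It lay above the interval for 18.8% of all genes that were lower with gain. For Lrrc58 the genotypes overlapped, with 15811 and 13770.4 normalized counts in WT, against 13788.5 and 14136 in Zbtb16lu/lu. Its log2 fold change was -0.08 (SE 0.117, interval -0.35 to 0.19) and turned to 0.02 without WT library 1. These comparisons leave out the counting error of the gain ratio. For Lrrc58 the gain interval, -0.26 to -0.14, reaches sizes inside the loss interval, so its place above is not settled. For the 5 members inside, the intervals spanned both no difference and a reversal of equal size, so the data do not separate these.

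Pla2g4a was the 1 member of 9 with a p under 0.05 before adjustment, beside 9.88% of all genes. It had 2926 and 2852 normalized counts in WT, against 2386 and 2256 in Zbtb16lu/lu, lower in both mutant libraries. The log2 fold change was -0.32 (SE 0.116, interval -0.58 to -0.05, unadjusted p = 0.0244, limma adjusted p = 0.468). The difference was -0.38 within the shared date and -0.26 between the other libraries. In PLZF-Flag it was also the lower value, by 1.03-fold, so Pla2g4a was among the 6 members that were lower in both experiments. Without WT library 1 the adjusted p was 0.0491, and without WT library 2 it was 0.0344, with the spread then taken from the mutant pair, and 4645 and 2760.0 of all genes passed in those fits. Without Zbtb16lu/lu library 1 or 2 it was 0.999969 and 0.999995, with 1 and 48 of all genes passing. The log2 fold change itself lay between -0.36 and -0.28 in these 4 fits.

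Bbx and Blm, the neighbours of Cd47 and Furin, were also lower in both mutant libraries. Bbx had 3035 and 3365 normalized counts in WT, against 2952 and 2896 in Zbtb16lu/lu, with a log2 fold change of -0.13 (SE 0.118, limma adjusted p = 0.719). Blm had 2732 and 3049 in WT, against 2731 and 2657 in Zbtb16lu/lu, with a log2 fold change of -0.10 (SE 0.120, limma adjusted p = 0.786). For Blm the closest libraries of the genotypes differed by less than 1 normalized count. Without WT library 2 the log2 fold change was -0.05 for Bbx and -0.02 for Blm, and without WT library 1 it was -0.20 and -0.18. No difference in either neighbouring pair passed the threshold.

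Mef2c was decided by 1 library. It had 2775 and 4837 normalized counts in WT, 1.74-fold apart, and 3475 and 3301 in Zbtb16lu/lu, between the WT values. The log2 fold change was -0.11 (SE 0.223, interval -0.62 to 0.40, limma adjusted p = 0.884). It was -0.51 without WT library 1 (adjusted p = 9.95e-05) and 0.29 without WT library 2 (adjusted p = 0.0742), so it called opposite directions. WT library 2 also held the most of 5 of the 7 erythroid and megakaryocyte markers. Pf4, the platelet chemokine, stood at 1306 normalized counts there and at 216 in WT library 1, and at 486 and 96.6 in Zbtb16lu/lu. The list summed to 56.3 and 133 CPM in WT, against 84.3 and 50.1 in Zbtb16lu/lu, with none of its 7 genes at 0. The part of these markers in the Mef2c values was not tested.

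Mrpl23 had 371 and 374 normalized counts in WT, against 416 and 423 in Zbtb16lu/lu. The log2 fold change was 0.17 (SE 0.170, interval -0.22 to 0.56, limma adjusted p = 0.741). Its processed pseudogene Mrpl23-ps1 on chromosome 2 held 1454 and 1447 in WT, against 1718 and 1620.3 in Zbtb16lu/lu, more than the gene itself, with a log2 fold change of 0.20. Reads may be split between the copies, so the GMP value of Mrpl23 is uncertain.

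**Figure D3:**
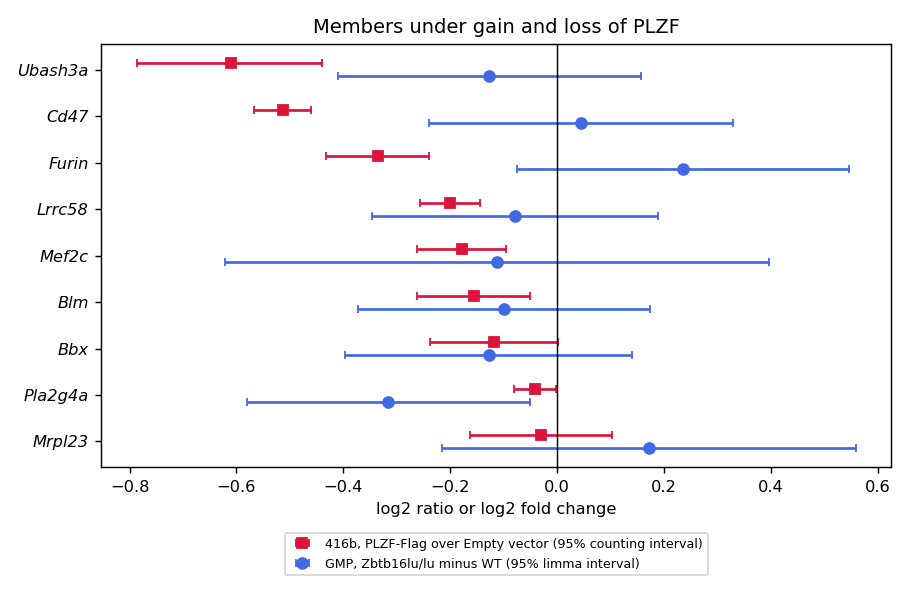
Log2 ratio with gain of PLZF in 416b cells (red squares, with 95% counting intervals) and log2 fold change with loss in GMPs (blue circles, with 95% limma intervals) for the 9 members, ordered by the gain ratio. The gain values lie at or below 0 while 8 of the 9 loss intervals include 0.

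Markers of other cells were read in the same libraries, and none of them passed the threshold. All 6 monocyte markers were higher in both mutant libraries (21.7% of all genes), summing to 2071 and 2491 CPM in WT, against 2956 and 2913 in Zbtb16lu/lu, with none at 0. Of these 6, 5 (83.3%) had a p under 0.05 before adjustment, against 5.50% of all genes on that side. Of the 10 mature neutrophil markers 6 were higher in both, the same number had a p under 0.05 before adjustment, and the median log2 fold change of the list was 1.69. Ltf, the granule protein lactoferrin, had 56.7 and 11.6 normalized counts in WT, against 846 and 305 in Zbtb16lu/lu (log2 fold change 4.24, SE 0.687, limma adjusted p = 0.299). The list summed to 355 and 168 CPM in WT, against 524 and 272 in Zbtb16lu/lu, with 1 marker at 0 in WT library 2, so the sums of the genotypes overlapped. Of the 6 mast cell and basophil markers 3 were lower in both mutant libraries (22.1% of all genes) and 0 higher. Of these 6, 2 (33.3%) were lower with a p under 0.05 before adjustment, against 4.37% of all genes. Their part in the member values was not tested.

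**Figure D4:**
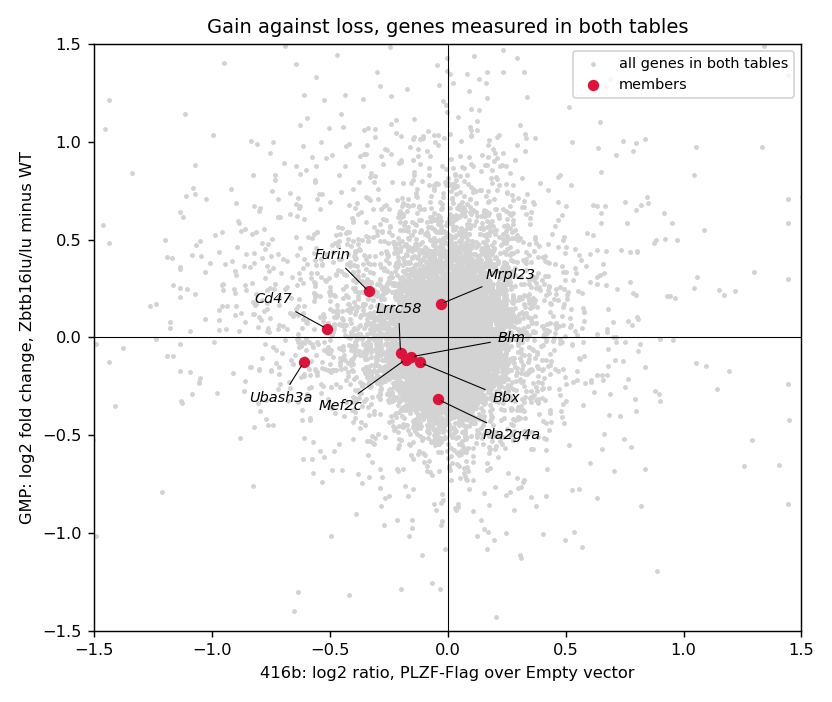
Log2 fold change with loss in GMPs (vertical axis) against log2 ratio with gain in 416b cells (horizontal axis) for the 11242 genes in both tables (grey points; 82 lie outside the plotted range), with the 9 members in red. All members lie left of 0, and 3 of them lie above 0 on the vertical axis.

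The baseline of each member was compared with that of other genes in the same cells, as CPM per kilobase of annotated exon. The tables were normalized separately and made with different kits, so levels are set side by side with no test. In 416b Empty vector Pla2g4a stood highest at 56.5, percentile 90.5 of 11650 expressed genes. Cd47 followed at 39.4 and Lrrc58 at 22.3. The remaining 6 lay between 2.33 (Ubash3a) and 7.80 (Furin), around or under the all-gene median of 7.77.

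In WT GMPs Cd47 stood highest, at 49.0 and 59.3 in the 2 libraries, percentile 92.7 of 19719 expressed genes. Lrrc58 followed at 46.0 and 41.5. The ranges of Cd47 and Lrrc58 over the libraries did not overlap, although they lay close. Pla2g4a came next at 11.5 and 11.6, percentile 69.4. It was thus a top-decile gene of the line and a moderate one of the progenitors. The next values were 7.79 and 9.01 for Blm, 8.17 and 7.23 for Ubash3a, 4.42 and 7.98 for Mef2c and 5.35 and 6.14 for Bbx, and these ranges overlapped in sequence. Furin at 3.55 and 4.02 and Mrpl23 at 1.90 and 1.99 lay under the all-gene median of 4.72. The Mrpl23 level is per 4883 bases of merged exons, and reads may be split with its pseudogene, so it is uncertain.

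The widest difference in rank was that of Ubash3a, at percentile 24.6 in 416b cells and 60.5 in WT GMPs. Bbx moved from 28.5 to 54.1 and Pla2g4a from 90.5 to 69.4. The percentile was higher in GMPs for 6 of the members, and the median percentile of the 9 was 45.6 in 416b cells and 60.5 in GMPs. The ranks are over gene sets of unlike size, and with ranks limited to genes averaging 100 or more these medians were 37.7 and 44.6. Zbtb16 stood at percentile 23.8 in Empty vector and 45.3 in WT GMPs, so both cells had transcripts of it at baseline.

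**Figure D5:**
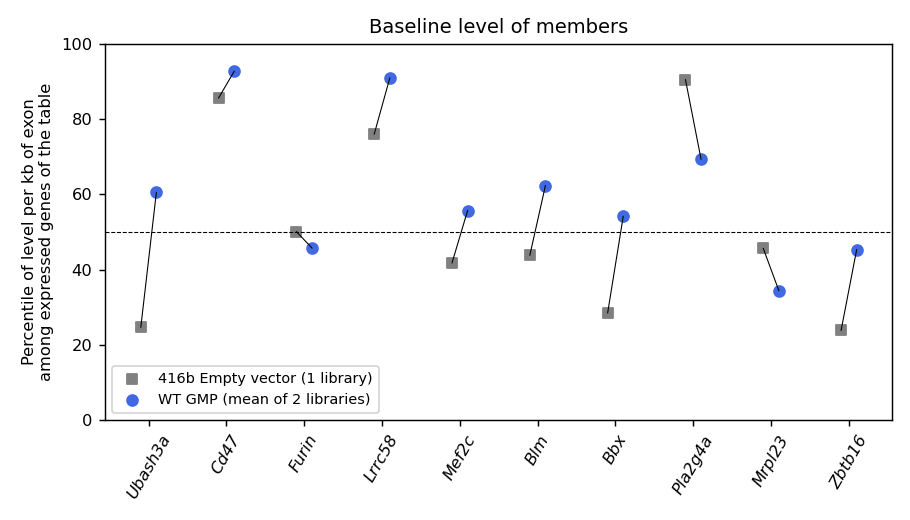
Percentile of the level per kilobase of exon among expressed genes of the same table, for the 9 members and Zbtb16 in 416b Empty vector (grey squares, 1 library) and WT GMPs (blue circles, mean of 2 libraries). The dashed line marks the median gene. Ubash3a has the widest gap, 24.6 against 60.5.

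Of the coding genes next to a member that are no members themselves, 7 were measured in 416b cells, and 3 of them (Ptgs2, Ift57 and Cetn3) had an interval below 0 and 0 above, against 15.9% and 16.1% of all genes. Ptgs2, the inducible cyclooxygenase that acts on the arachidonate released by Pla2g4a, lies 138740 bases from it. It had a log2 ratio of -0.51 on gain (interval -0.67 to -0.36), while that of Pla2g4a was -0.04. On loss Ptgs2 had 49.7 and 62.7 normalized counts in WT, against 56.2 and 83.3 in Zbtb16lu/lu, low and overlapping. Ift57, on the other side of Cd47 from Bbx, had a log2 ratio of -0.33 on gain (interval -0.48 to -0.18) and a log2 fold change of -0.03 on loss. Crtc3, beyond Blm, had a log2 ratio of 0.03 (interval -0.08 to 0.14). Beside Mef2c, the centrin gene Cetn3 had a log2 ratio of -0.11 (interval -0.18 to -0.05) and Tmem161b one of -0.08 with an interval including 0. Tmprss3, beside Ubash3a, was low, with 67.2 normalized counts in Empty vector and a log2 ratio of -0.58 (interval -1.25 to 0.03).

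Related genes of each pathway were counted in the same way, against the 15.9% of all genes with an interval below 0 and the 16.1% above. Of the 7 MEF2 family and class IIa deacetylase genes measured in 416b cells, Mef2c and Mef2d (-0.13) had an interval below 0, and the deacetylases Hdac5 (0.12) and Hdac7 (0.13) had one above 0. Hdac5 had 1931 and 1805 normalized counts in WT GMPs, against 2622 and 2522 in Zbtb16lu/lu (log2 fold change 0.46, SE 0.120, limma adjusted p = 0.378). Of 4 proprotein convertase genes, Furin alone lay below 0, and of 8 RecQ helicase and partner genes Blm lay below and Recql above. With so few genes per family, these counts are a description.

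Of 7 genes of the CD47 and SIRP axis in 416b cells, Cd47 and the calreticulin gene Calr (-0.17) lay below 0, and the phosphatase gene Ptpn6 (0.23) lay above. In GMPs Lrp1, a receptor for calreticulin, had 1378 and 1650.2 normalized counts in WT, against 2145 and 2536 in Zbtb16lu/lu (log2 fold change 0.63, SE 0.147, limma adjusted p = 0.343). Of 5 UBASH3 and SYK/CBL genes in 416b cells, Ubash3a lay below 0 and Syk (0.08) above, and the paralog Ubash3b had a log2 ratio of 0.05 with an interval including 0. Of 11 arachidonate genes, Pla2g4a, Ptgs2 and Tbxas1 (-0.10) lay below, and the lipoxygenase genes Alox5 (0.42) and Alox12 (0.35) with the activating protein gene Alox5ap (0.09) lay above.

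Of 49 genes of the large mitochondrial ribosomal subunit in 416b cells, 7 (14.3%) lay below and 12 (24.5%) above, beside 15.9% and 16.1% of all genes, and Mrpl23 was in neither group. In GMPs 17 of the 49 were lower in both mutant libraries (34.7%, against 22.1% of all genes). Mrpl23 was among the 3 that were higher in both (6.12%, against 21.7% of all genes). Of 13 HMG box genes in 416b cells, 3 lay below and 5 above, Bbx in neither. Of 16 genes for PLZF cofactors, such as the corepressor Ncor1 (0.09), 7 lay above and 2 (Bmi1 at -0.19 and Cul3 at -0.07) below. In GMPs 46.7% of the HMG box genes were lower in both mutant libraries and 20.0% were higher. For the cofactor genes these shares were 37.5% and 12.5%, beside 22.1% and 21.7% of all genes. No gene of these lists passed the threshold in GMPs.

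The study also lists genes tied to PLZF-bound enhancers that lose H3K27ac (PBDA), and 8 of the members are among them, all but Mrpl23. Of the 795 PBDA genes measured in 416b cells, 198 (24.9%) had an interval below 0 and 119 (15.0%) above, beside 15.9% and 16.1% of all genes, with a median log2 ratio of -0.03 against -0.18 for the members. In GMPs, with p under 0.05 before adjustment, 46 of 844 (5.45%) were higher and 30 (3.55%) were lower, near the 5.50% and 4.37% of all genes, none passed the threshold, and the median log2 fold change was 0.0028, with no stable sign (-0.0136 among genes averaging 100 or more, and -0.0100 to 0.0099 with a library left out). Blm and Furin are also listed for enhancers that gain activity in both Zbtb16lu/lu and old GMPs, and Bbx, Cd47, Lrrc58 and Mef2c for those that gain it in old GMPs only. No member but Blm and Furin is listed for a gain in Zbtb16lu/lu. The share of all genes on the study's lists was not counted. The RNA of Furin was higher and that of Blm lower in Zbtb16lu/lu, neither past the threshold.

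The genes most like each member over all 6 libraries were found among 9400 genes by Euclidean distance of log2 values, each table centred on its mean. They were Fundc1 for Bbx, Tmem209 for Blm, Arel1 for Mrpl23, Arf4 for Pla2g4a, Soat1 for Lrrc58, Cd274 for Mef2c, Irak2 for Furin, Ripk2 for Ubash3a and Serpinb1a for Cd47. The distances ran from 0.017 (Lrrc58) to 0.085 (Furin). No member had another member as its closest gene.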

How the data were processed

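RNA-seq of 416b cells (1 library per condition) and GMPs (2 per genotype) was used. ChIP-seq and ATAC-seq were not analysed here. The authors removed reads under a Phred quality minimum, mapped the rest to mm10 with subread-align and counted them per gene with featureCounts 1.5.0 (submitters' processing notes). The deposited signal values are these counts divided by DESeq2 size factors. The authors' own means, fold changes and p-values are also in the tables and were not used. The 9 members and the gene lists were chosen with earlier results of these data known. The named genes are the members, Zbtb16, genes of the pathway and marker lists, the nearest coding gene on each side of a member and the gene closest to each member over all libraries.

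For 416b cells, reads were recovered by division, since 1 read is worth 0.605 in the Empty vector column and 1.65 in that of PLZF-Flag. Of the values, 84.8% and 85.5% were whole within 0.02 of a read, and the rest, Pla2g4a in PLZF-Flag among them, were not whole and may not be plain read counts. They were rounded, and their intervals are approximate. A pseudocount of 1 was added for ratios, with exact binomial 95% limits, and genes with a mean of at least 10 gave the background. No test was made between single libraries.

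For GMPs, edgeR had been planned if the values were counts. They were normalized, so limma-trend was fitted to log2(value + 1) for genes with at least 10 in at least 2 libraries, with Benjamini-Hochberg adjustment over all genes and a threshold of 0.08. Fold changes on this scale understate those of low genes. In each GMP column 100% of values were multiples of the smallest one, but that value was so close to 1 in 2 columns that reads were not treated as recovered, and the depth behind these values is not stated. The study states 3 RNA extractions, and 2 libraries per genotype are in the table. Exon lengths and positions came from GENCODE M21. Lengths were found for 98.1% of 416b and 96.9% of GMP symbols. Scripts were checked on simulated data. Tools were limma 3.58.1 and, for 416b scaling, edgeR 4.0.16 in R 4.3.3, with scipy 1.17.1, pandas 2.3.3 and numpy 2.4.6 in Python 3.11.15.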

Additional observations from a re-analysis of the deposited data

How the results depend on the processing

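In 416b cells the direction of all 9 members held under TMM scaling, total reads and pseudocounts of 0.1 and 10, and the count of members with an interval below 0 was 7 or 8. In GMPs the count of members under the threshold was 0 in the reported fit and in the other settings with all 4 libraries (quantile normalization, equal library totals, pseudocounts 0.1 and 10, a mean of at least 100, no intensity trend, no filter, a threshold of 0.05 and, chosen after seeing the data, a robust variance prior), where 0 of all genes passed as well. With each library left out it ranged from 0 to 2. It was 2 (Pla2g4a and Mef2c) without WT library 1 or without WT library 2, where 4645 and 2760.0 of all genes passed, since the spread then comes from the mutant pair and the lone WT library is assumed to vary likewise.

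Signs turned for 3 members, whose log2 fold changes with a library left out ranged from -0.514 to 0.287 (Mef2c), -0.179 to 0.0198 (Lrrc58) and -0.0669 to 0.157 (Cd47). Mef2c went to 0.29 without WT library 2 and 0.25 within the shared date (chosen after seeing the data, no test), Lrrc58 to 0.02 without WT library 1, and Cd47 to -0.07 without WT library 1 and -0.03 without Zbtb16lu/lu library 1. Other values that moved by over 1.5 times with a library left out ranged from -0.24 to -0.0145 (Ubash3a), -0.203 to -0.0538 (Bbx), -0.179 to -0.0203 (Blm) and 0.135 to 0.335 (Furin). Members lower with gain and higher with loss numbered 2 to 4 with a library left out. With a mean of at least 100, the median percentile of the members was 37.7 in 416b cells and 44.6 in GMPs, since fewer low genes were ranked, and the median PBDA log2 fold change was -0.0136. With each library left out that median ranged from -0.0100 to 0.0099; the cause was not tested.

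No paired analysis was possible because the GMP libraries have no replicate numbers, and a term for the 3 dates in the column names leaves 0 residual degrees of freedom. edgeR and DESeq2 were not run on GMPs, although the multiples would allow a count test, so limma is the only test behind the count of 0. Depth limits the 416b intervals most for Ubash3a, with 343 reads in PLZF-Flag.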
